A study of Mus musculus with 12 samples.

Results

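Voltage-gated sodium (Nav), calcium (Cav) and HCN channels set whether and how a neuron fires, and the mRNAs of their subunits were followed through circuit-specific TRAP of ventral hippocampus (vHPC) with and without FosB. The genes were taken by symbol from the protein-coding genes of Gencode vM1 (Scn followed by a number and a or b, Cacna1, Cacna2d, Cacnb followed by a number, and Hcn followed by a number). This gave 36 genes of 37310 in the count files, of which 22380 are protein-coding. There were 10 Nav α genes, 4 Nav β genes, 10 Cav α1 genes, 4 Cav α2δ genes, 4 Cav β genes and 4 HCN genes. Scn8a is listed under 2 gene identifiers, the main gene (ENSMUSG00000023033.7) and a short model upstream of it (ENSMUSG00000090536.1). The gene now called Scn2a has the symbol Scn2a1 in Gencode vM1 and so is not among the 36, and its values are given beside theirs.

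TRAP (translating ribosome affinity purification) pulls GFP-tagged ribosomes, with the mRNA on them, out of tissue. All mice were C57BL/6, carried Rosa26 eGFP-L10a, a Cre-dependent GFP fusion of a ribosomal protein, and received the retrograde vector HSV-hEf1α-Cre in nucleus accumbens (NAc) 3 weeks before vHPC was punched. WT mice had no floxed FosB allele and KO mice were FosB fl/fl, so that Cre was present in both genotypes and removed part of FosB in KO only. Each genotype gave 3 pools (numbered 1 to 3 in WT and 2 to 4 in KO, of 3 mice each by the labels and 3 to 4 by the methods), and every pool was split into a purified (TRAP) sample and an input sample of the whole punch, 12 libraries in all. The methods speak of male C57BL/6J mice in general and give neither age nor sex for these pools. The vector reaches any neuron with an axon in NAc, so tagged ribosomes mark a projection and not 1 cell type. The slice recordings and behavioral experiments of the study were not analysed here.

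Nav α subunits form the pore that carries the upstroke of the action potential, and Nav β subunits hold it in the membrane and shift its gating. Cav α1 subunits form the calcium pore (L type from Cacna1c and Cacna1d, P/Q, N and R type from Cacna1a, Cacna1b and Cacna1e, T type from Cacna1g, Cacna1h and Cacna1i), Cav β subunits bind α1 inside the cell and bring it to the surface, and α2δ subunits bind it outside the cell. HCN channels open on hyperpolarization and dampen the excitability of pyramidal cell dendrites. In hippocampal pyramidal cells the main Nav α genes are Scn2a and Scn8a, and Scn1a is best known for its role in interneurons.

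Reads assigned to genes numbered 3416030 to 5614089 per library, and the 36 channel genes took 0.248% to 0.296% of them (9784 to 16372 reads). Levels are in CPM (the usual depth-scaled read count, with TMM factors), and 3 counts corresponded to 0.534 to 0.878 CPM, the limit for a gene with no counts. That limit covers counting error only. Fosb, the targeted gene, gave 45.2, 32.0 and 40.1 CPM (WT TRAP), 29.3, 18.8 and 21.5 (KO TRAP), 30.2, 22.2 and 24.4 (WT input) and 17.04, 16.0 and 14.8 (KO input). The genotypes did not overlap in either fraction, but reads were still counted on Fosb in KO, and its log2 fold change of -0.76 ± 0.21 (SE) in TRAP had an adjusted p of 0.337 in edgeR. Over both genotypes 22.5% of all genes were called lower in TRAP than in input, and 19.6% higher. Markers of glia and vessels were low in TRAP. Called lower were 10 of 10 tested astrocyte markers and 10 of 11 of the oligodendrocyte lineage. So were 10 of 10 of microglia and 5 of 6 of endothelium and mural cells. Of glutamatergic markers 6 of 10 were called higher. The remaining oligodendrocyte lineage marker, Cspg4, which pericytes also express, had a log2 ratio of 0.95 over both genotypes (adjusted p = 0.00101, edgeR), which averages 1.69 in WT, where it was called higher in TRAP, and 0.20 in KO, where it was not called. No marker of that lineage was called in the difference of the ratios between genotypes, against 0.00757% of all genes. An unadjusted p under 0.05 in edgeR was found there for 2 of 11, against 2.71% of all genes. Of 12 GABAergic interneuron markers 10 were called lower, against 22.5% of all genes. The summed level of the 12 was 301 to 439 CPM in WT TRAP and 675, 194 and 191 in KO TRAP pools 2, 3 and 4. In the input libraries it was 952 to 1127. None of the 12 was at 0 throughout a group. In the TRAP libraries alone a filter on low counts passed 9 of the astrocyte markers and 7 of the oligodendrocyte lineage. It passed 3 of endothelium and mural cells, 11 of the GABAergic interneurons and no marker of microglia. The other markers passed through input, where they were high, so their calls are a description and support nothing. In tissue of this kind, fewer cells of a type and less RNA per cell cannot be told apart.

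Compared per kilobase of exon, a few auxiliary subunits had the highest levels of the genes given here, and others lay below the most abundant pores. In WT TRAP, Cacnb3 was at 104 ± 9.70 CPM per kb (SD, n = 3), Cacnb1 at 94.5 ± 3.74 and Scn2b at 38.0 ± 2.04. The libraries of Cacnb3 and Cacnb1 overlapped on this scale. Among pores Cacna1e, the R-type channel (26.1 ± 6.40), and Scn8a, the Nav channel of the axon initial segment (22.5 ± 2.24), were high and did not differ beyond their spread. Scn2a1 was at 28.0 ± 4.96 on the same scale. Cacna2d1, the main α2δ subunit, was at 13.05 ± 1.90 CPM per kb. When length was taken from the longest transcript, Cacnb1 rose to 126 CPM per kb, above Cacnb3 at 115, so the order of the pair rests on the gene model.

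**Figure D1:**
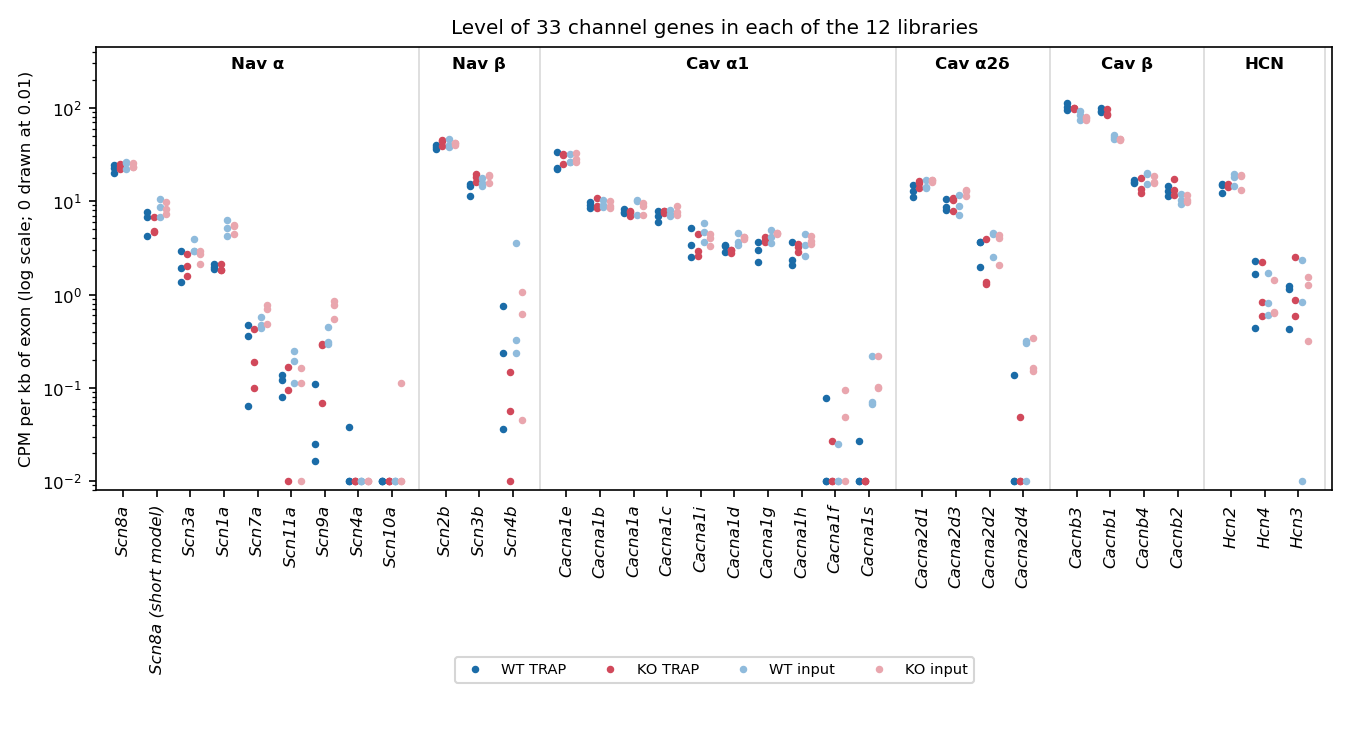
Level of 33 of the 36 channel genes in the 12 libraries, in CPM per kilobase of merged exon on a log scale, grouped by subfamily and ordered by WT TRAP; each point is 1 library and a value of 0 is drawn at 0.01. Of the genes drawn Cacnb3 and Cacnb1 are highest, and Scn4a, Scn10a, Cacna1f, Cacna1s and Cacna2d4 lie at or near 0.

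Not every channel gene could be tested. Scn4a, Scn10a, Scn11a, Cacna1f, Cacna1s and Cacna2d4, known from muscle, sensory neurons and retina, had at most 9 counts in any library and passed the filter on low counts in no comparison. Scn10a had counts in KO input 2 alone, 3 reads. Scn9a, the channel of pain fibres and sympathetic neurons, and Scn4b were tested in input and in the fits of all libraries but not between genotypes in TRAP. Scn4b had 80 counts in WT input 3 and 0 to 24 in the other 11 libraries, and Scn7a, Hcn3 and Hcn4 had at most 49 in any library, so single libraries weigh heavily on these. That left 28 channel genes tested between genotypes in TRAP and 30 in input.

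The first question was whether loss of FosB in NAc-projecting vHPC neurons came with a different level of any channel mRNA. No channel gene was called between KO TRAP and WT TRAP (adjusted p under 0.05 in edgeR's quasi-likelihood test), against 0.0682% of all genes tested, and none was called between KO input and WT input, against 0.0312% of all genes. With DESeq2 there were also 0 calls in either fraction. At an unadjusted p under 0.05 there was 1 of 28 in TRAP, where 6.05% of all genes passed, and 2 of 30 in input, where 2.89% passed, and DESeq2 gave the same numbers, 1 and 2. In TRAP 16 channel genes lay above and 12 below 0, with a median log2 fold change of 0.04, and in input 12 lay above and 18 below, with a median of -0.03. The medians over all genes tested were -0.0020 and -2.5e-05.

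The lowest p in TRAP belonged to Scn3b, a Nav β subunit. Scn3b was at 70.2, 66.3 and 52.9 CPM in WT TRAP and at 90.4, 83.6 and 73.3 in KO TRAP, so that every KO pool lay above every WT pool. The log2 fold change was 0.38 ± 0.14, with an adjusted p of 0.728 in edgeR that stayed between 0.368 and 1.0 over the alternatives tried. In input Scn3b was at 72.5, 81.0 and 66.7 in WT and 85.2, 71.9 and 88.2 in KO, with overlap, and the difference between the KO and WT ratios of TRAP to input was 0.22 ± 0.20 on the log2 scale.

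Cacna1g, a T-type channel, was the other gene whose groups did not overlap in TRAP. WT TRAP pools had 30.2, 36.4 and 22.6 CPM of Cacna1g and KO TRAP pools 38.8, 41.2 and 36.6, where the lowest KO pool exceeded the highest WT pool by a margin far smaller than the spread of either group (log2 fold change 0.38 ± 0.19, adjusted p = 0.820, edgeR). These were 2 of 28 channel genes, both higher in KO, and 11.9% of all genes tested in TRAP did not overlap. In input 1 of 30 did not overlap, Scn9a, against 8.37% of all genes.

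Scn9a counts were low everywhere, 11, 21 and 15 in WT input and 25, 37 and 42 in KO input (3.19, 4.81 and 3.30 against 5.92, 8.21 and 9.15 CPM). The log2 fold change was 1.04 ± 0.41 with an unadjusted p of 0.0208 and an adjusted p of 1.0 in edgeR. In TRAP Scn9a had 1, 5 and 1 counts in WT and 11, 3 and 13 in KO, where it was not tested. Cacna2d3, an α2δ subunit, was at 26.1, 43.5 and 32.6 CPM in WT input and 41.9, 48.1 and 47.7 in KO input, overlapping in WT pool 2 alone (log2 fold change 0.43 ± 0.19, adjusted p = 1.0, edgeR). In TRAP Cacna2d3 was at 29.7, 32.0 and 38.8 in WT and 37.7, 28.8 and 39.6 in KO, with full overlap. Channel genes at an unadjusted p under 0.05 in TRAP numbered 0 of 29 without WT pool 3, where 692 of all 12104 genes had one, and 4 of 29 without WT pool 1, where 995 of all 12057 did. In input there were 0 of 30 without WT pool 3, KO pool 3 or KO pool 4, where 418 of 13161, 428 of 13157 and 306 of 13179 genes over all had one.

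For the abundant pores the intervals bound the difference between KO and WT TRAP libraries, gene by gene and without adjustment for the number of genes. They do not bound the change within single targeted neurons. The 95% interval of the log2 fold change in TRAP was -0.15 to 0.26 for Scn8a, -0.24 to 0.30 for Cacna1b, -0.32 to 0.20 for Cacna1a and -0.26 to 0.39 for Hcn2. The interval was -0.23 to 0.57 for Cacna1e, whose WT TRAP pools spread from 281 to 425 CPM, and -0.14 to 0.46 for Cacna1c, the main L-type gene of hippocampus. Among auxiliary subunits the intervals were -0.05 to 0.38 for Scn2b, -0.27 to 0.10 for Cacnb1, -0.26 to 0.13 for Cacnb3 and -0.03 to 0.49 for Cacna2d1. The interval was -1.87 to 1.27 for Scn7a, -0.69 to 1.72 for Hcn3 and -1.497 to 0.96 for Hcn4. Scn2a1, just outside the symbol pattern, had 310.0, 221 and 246 CPM in the WT TRAP pools and 283, 256 and 312 in the KO TRAP pools (log2 fold change 0.13 ± 0.12, adjusted p = 0.922, edgeR).

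**Figure D2:**
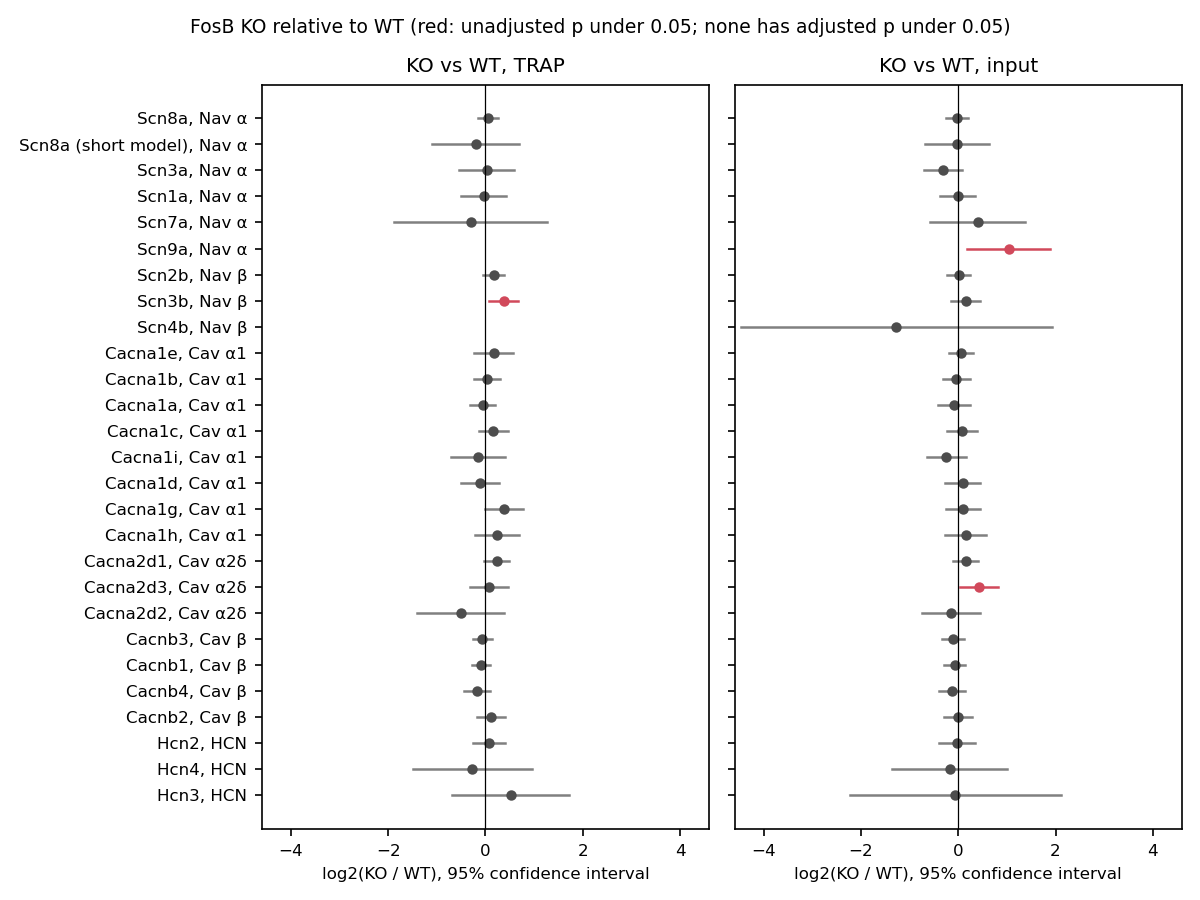
Log2 fold change of KO over WT with its 95% confidence interval from edgeR in TRAP (left, 25 of the 28 tested channel genes) and input (right, 27 of 30); red marks an unadjusted p under 0.05. Scn3b in TRAP and Scn9a and Cacna2d3 in input are red, and no gene drawn has an adjusted p under 0.05.

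The second question was how the channel mRNAs on tagged ribosomes differed from those of the whole punch. Over both genotypes 8 of 30 tested channel genes were called, against 42.2% of all genes tested. Of these 3 were higher in TRAP, all Cav β genes (Cacnb1, Cacnb2 and Cacnb3), against 19.6% of all genes called higher. The other 5, against 22.5% of all genes called lower, were the Nav α genes Scn1a, Scn3a and Scn9a and the Cav α1 genes Cacna1d and Cacna1g. Scn9a and Scn4b passed the filter on low counts through the input libraries, where they were high, and not in the TRAP libraries, so any call of these 2 in TRAP against input is a description and supports nothing. Of the other 28 channel genes 7 were called, 3 higher and 4 lower. Within WT alone 4 of 29 were called (Cacnb1 and Cacnb3 higher, Scn1a and Scn9a lower), where 24.9% of all genes were, and within KO alone 6 of 29 (Cacnb1, Cacnb2 and Cacnb3 higher, Scn1a, Scn9a and Cacna1d lower), where 29.1% of all genes were. With the TRAP and input library of each pool taken as a pair (a replicate block), 13 of 30 were called over both genotypes, against 43.5% of all genes under the same block, adding Cacna1h, Cacna1i, Cacnb4, Scn4b and Scn7a, all lower in TRAP. With DESeq2 10 of 30 were called, against 42.8% of all genes, adding Scn4b and Scn7a. The call of Cacnb3 in WT alone (adjusted p = 0.0485) was lost in DESeq2, with RLE or total-count scaling, with a mean of at least 10 counts, without robust dispersion, without mitochondrial genes, and without WT pool 2 or WT pool 3. The call of Cacna1d in KO alone (adjusted p = 0.0313) was lost with total-count scaling, with no filter, in 1 fit of all 12 libraries and without any 1 of the 3 KO pools. Without WT pool 3 the count in WT alone was 2, and without KO pool 4 the count in KO alone was 2. At an unadjusted p under 0.05 in edgeR, channel genes then went from 7 to 3 in WT and from 8 to 6 in KO. All genes at that p went from 4488 to 3161 in WT and from 4904 to 3722 in KO. The block added Scn3a in WT alone, where 26.6% of all genes were then called, and Cacna2d2 in KO alone, where 31.9% were, both lower. The median over the 28 without Scn9a and Scn4b was -0.16 on the log2 scale, with 7 above and 21 below 0, and the median over all genes was -0.01.

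**Figure D3:**
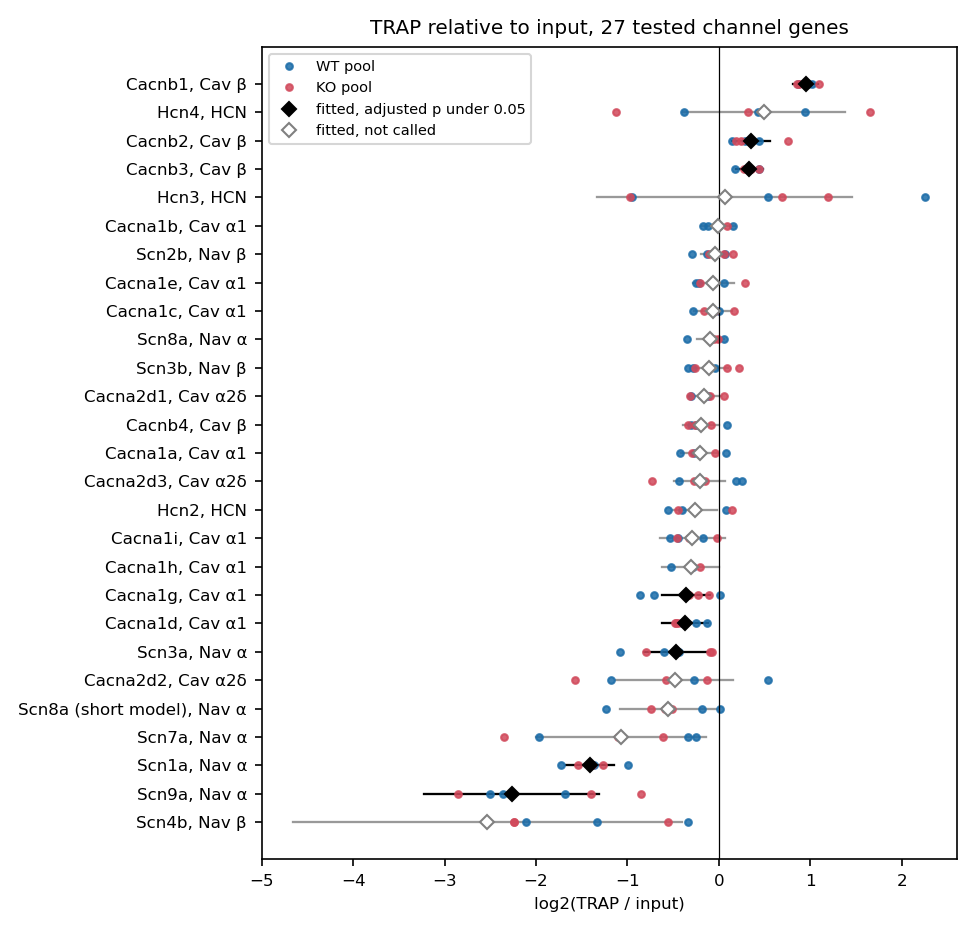
Log2 ratio of TRAP to input for 27 of the 30 tested channel genes; coloured points are the ratios of single pools, diamonds with lines are the fitted ratios over both genotypes with 95% confidence intervals, and filled diamonds have an adjusted p under 0.05. Cacnb1 lies to the right of 0 in all 6 pools, and Scn1a and Scn9a to the left of 0 in all 6.

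Cacnb1, a Cav β subunit also known as the β subunit of skeletal muscle, showed the largest increase among the called channel genes. It was at 447, 414 and 423 CPM in the WT TRAP libraries and 386, 441 and 383 in KO TRAP, against 219.9, 211 and 231 in WT input and 209.9, 206 and 211 in KO input. The lowest TRAP library lay far above the highest input library, and the ratios of the single pools were tightly grouped, from 0.86 to 1.09 on the log2 scale. TRAP was 1.93-fold input (log2 ratio 0.95 ± 0.07, adjusted p = 7.46e-12, edgeR). Cacnb1 overlaps Gm11629 on the other strand by 80 bases.

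Cacnb3, the Cav β subunit often paired with N-type channels, moved the same way by less. Its levels were 323, 294 and 355 CPM in WT TRAP, 315, 301 and 311 in KO TRAP, 286, 232 and 262 in WT input and 246, 248 and 230.2 in KO input. No TRAP library fell into the input range (log2 ratio 0.33 ± 0.07, adjusted p = 0.000396, edgeR). Of 92 stretches of 75 bases in the Cacnb3 exons, 8 had another place in the mouse genome within 2 mismatches, where reads would be set aside by the counting.

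Cacnb2, the Cav β subunit of heart and brain, was at 106, 135 and 118 CPM in the WT TRAP libraries and 107, 160.2 and 121 in KO TRAP, against 95.7, 111 and 87.0 in WT input and 90.6, 94.7 and 107 in KO input. The ranges overlapped slightly, though each pool's TRAP library lay above its own input library (log2 ratio 0.35 ± 0.10, adjusted p = 0.00580, edgeR). Without KO pool 3, the pool with the highest ratio, the adjusted p was 0.0503. Cacnb2 shares 489 bases of exon with Gm10849 and Gm13269 on the other strand, as Cacna1a shares 435 with Gm16183, Cacna1h 158 with Tpsg1 and Cacna2d2 82 with Gm17141. Cacnb4, mutated in the epileptic lethargic mouse, went the other way in 5 of 6 pools, with levels of 145, 142 and 150.1 in WT TRAP, 159, 110.0 and 119 in KO TRAP, 135, 176 and 179 in WT input and 168, 139 and 143 in KO input. Its ratio of -0.19 ± 0.09 missed the threshold (adjusted p = 0.0989, edgeR) and passed it with the block (adjusted p = 0.0463) and without WT pool 1. Cacnb4 shares 1433 bases of exon with a gene on the other strand, A430018G15Rik.

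Within the summed Cav β level per kilobase, Cacnb1 made up 39.5% to 43.6% in the TRAP libraries and 29.3% to 31.5% in input, Cacnb3 43.1% to 48.0% and 48.7% to 55.3%, and Cacnb4 5.51% to 8.24% and 9.14% to 12.9%. The share of Cacnb2 was 5.01% to 7.77% in TRAP and 5.74% to 7.85% in input. These shares are parts of the same sum, so a rise in the share of Cacnb1 lowers the others. The share of Cacnb3 was lower in TRAP although its own level was higher there. The sum itself was 211 to 237 CPM per kb in TRAP and 148 to 166 in input. The Cav α1 sum was 56.2 to 74.05 in TRAP and 63.8 to 80.7 in input, with overlap.

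**Figure D4:**
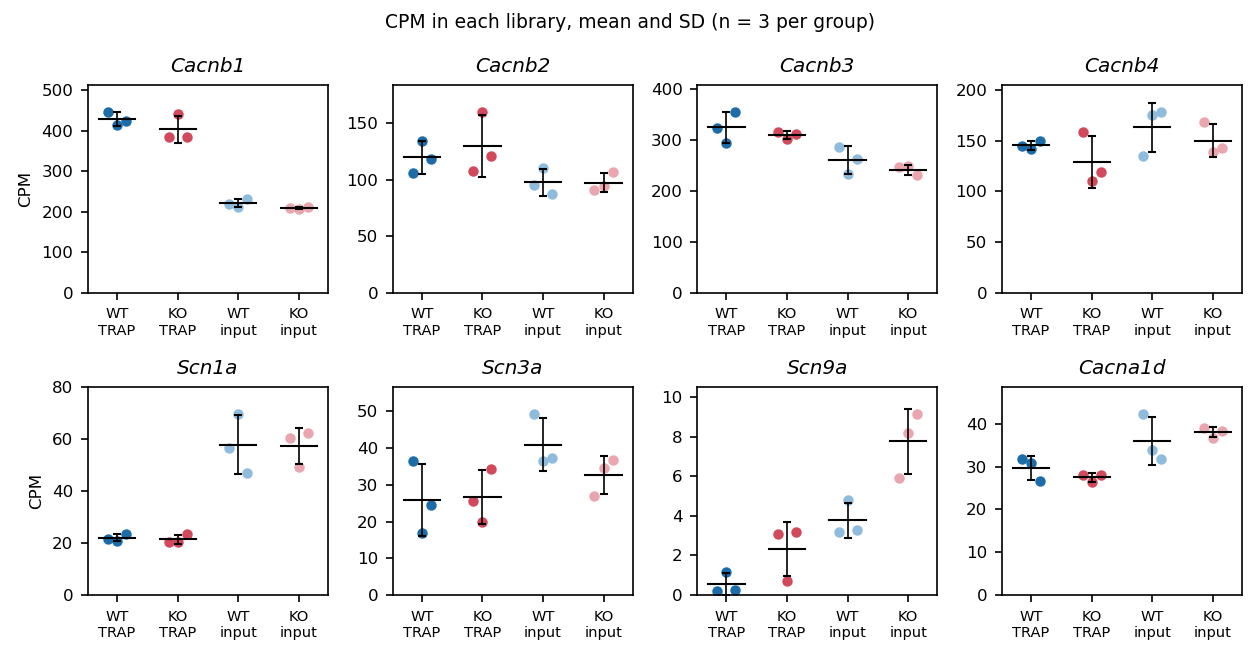
CPM of the 4 Cav β genes, of Scn1a, Scn3a and Scn9a, and of Cacna1d in each of the 12 libraries by group; points are libraries, and bars show the mean and SD of 3. Cacnb1 TRAP libraries lie at 383 to 447 CPM against 206 to 231 in input, and Scn1a TRAP libraries at 20.2 to 23.4 against 46.9 to 69.6.

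Scn1a, Scn2a1, Scn3a and Scn9a are close copies of each other, so that some reads fit several of them, and reads with several places were not counted. The shared part of their exons was small: within 2 mismatches of another place lay 6.43% of the 75-base stretches of Scn1a, 8.9% of Scn3a, 7.56% of Scn9a and 14.2% of Scn2a1, and 0% of Scn8a.

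Scn1a was at 21.7, 20.7 and 23.4 CPM in WT TRAP, 20.4, 20.2 and 23.4 in KO TRAP, 56.6, 69.6 and 46.9 in WT input and 60.3, 49.2 and 62.1 in KO input. The 6 TRAP libraries lay in a narrow band well below the lowest input library. The log2 ratio was -1.41 ± 0.13 (0.376 times input, adjusted p = 1.01e-09, edgeR), and single pools ranged from -1.73 to -0.99. Beside it, the interneuron marker Pvalb (parvalbumin) had a ratio of -3.25 (adjusted p = 1.23e-10) and Gad1, an enzyme of GABA synthesis, -1.73 (adjusted p = 0.00271). The interneuron markers varied more between KO TRAP pools (191 to 675 CPM in sum) than Scn1a did (20.2 to 23.4 CPM). Their part in the ratio was not tested.

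Scn9a counts were near the floor, and it passed the filter through input alone, so its ratio is given as a description. It had 1, 5 and 1 reads in WT TRAP and 11, 3 and 13 in KO TRAP, against 11, 21 and 15 in WT input and 25, 37 and 42 in KO input, lower in TRAP in every pool (log2 ratio -2.26 ± 0.47, adjusted p = 0.000276, edgeR). Its exons overlap Gm13629 on the other strand by 180 bases. Scn3a, the Nav channel most abundant in the embryonic brain, was at 36.5, 16.9 and 24.4 CPM in WT TRAP, 25.7, 19.8 and 34.4 in KO TRAP, 49.3, 36.4 and 37.2 in WT input and 27.0, 34.6 and 36.8 in KO input. These ranges overlapped broadly (log2 ratio -0.47 ± 0.17, adjusted p = 0.0275, edgeR), and without WT pool 2, WT pool 3 or KO pool 3 the adjusted p was 0.0673, 0.0696 and 0.150. In KO alone the ratio was -0.31 ± 0.20 (adjusted p = 0.275, edgeR).

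The Nav α genes of pyramidal cells differed little between fractions. Scn8a was at 272, 252 and 222 CPM in WT TRAP, 257, 243 and 276 in KO TRAP, 292, 243 and 282 in WT input and 257, 259.96 and 286 in KO input, and TRAP and input overlapped (log2 ratio -0.09 ± 0.07, 95% interval -0.24 to 0.06, edgeR adjusted p = 0.333). The ratio of Scn2a1 was -0.11 ± 0.09 (95% interval -0.29 to 0.07), from levels of 338, 289 and 257 in WT input and 259, 289.7 and 321 in KO input. With Scn2a1 counted in, Scn8a made up 34.8% to 39.2% of the summed Nav α level per kilobase in TRAP, Scn2a1 41.0% to 48.9% and Scn1a 2.77% to 3.74%. In input these shares were 30.3% to 35.1%, 38.2% to 45.6% and 5.83% to 8.66%. The short Scn8a model, at 4.52 to 8.23 CPM in TRAP and 7.25 to 11.2 in input, had a ratio of -0.56 ± 0.26 (adjusted p = 0.0814, edgeR).

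Scn7a, a sodium-sensing relative of the Nav channels, was at 0.470 to 3.45 CPM in TRAP and 3.204 to 5.66 in input (log2 ratio -1.07 ± 0.45, adjusted p = 0.0596 in edgeR, and 0.0447 with the block), and Scn7a was also called with DESeq2 and without KO pool 3.

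Of the Nav β genes none was called in edgeR as fitted for the other results, and Scn4b was called under some alternatives. The ratios of Scn2b (-0.04 ± 0.07) and Scn3b (-0.10 ± 0.10) were small. Scn4b, the subunit of resurgent sodium current, had 0 to 14 counts in TRAP and passed the filter through input alone, so its values are likewise a description. Its ratio of -2.53 ± 0.98 (adjusted p = 0.0541, edgeR) passed with the block (adjusted p = 0.00191), and Scn4b was also called with DESeq2, without robust dispersion and with no filter beyond 1 count. WT input 3, with its 80 counts, held the highest level, and the next highest library had 24.

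All 8 tested Cav α1 genes had a ratio below 0, but 2 were called. Cacna1d, the L-type channel that opens at lower voltage, was at 31.8, 30.8 and 26.6 CPM in WT TRAP, 28.2, 26.3 and 28.1 in KO TRAP, 42.4, 33.9 and 31.7 in WT input and 39.0, 36.8 and 38.3 in KO input. In KO the fractions were apart and in WT they met (log2 ratio over both -0.37 ± 0.12, adjusted p = 0.0181, edgeR). Without WT pool 1, KO pool 2, KO pool 3 or KO pool 4 the adjusted p of Cacna1d rose to between 0.0545 and 0.0731. Cacna1d shares 518 bases of exon with Chdh on the other strand.

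Cacna1g in input stood at 49.6, 36.2 and 41.4 CPM in WT and 45.4, 44.4 and 46.0 in KO, and its TRAP levels, given with the genotype comparison, were lower on average (log2 ratio -0.36 ± 0.13, adjusted p = 0.0224, edgeR). The difference came mostly from WT pools 1 and 3, with ratios of -0.71 and -0.86, while WT pool 2 was at 0.01. Without WT pool 1, WT pool 3, KO pool 2 or KO pool 4 the adjusted p of Cacna1g was between 0.0748 and 0.115.

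The other T-type genes had ratios of -0.31 ± 0.15 (Cacna1h) and -0.29 ± 0.17 (Cacna1i), which missed the threshold (adjusted p = 0.108 and 0.179) and passed it with the block (0.0398 and 0.0306). Cacna1e, the most abundant Cav α1 gene, was at 425, 281 and 287 CPM in WT TRAP, 407, 315 and 398 in KO TRAP, 409.6, 335 and 334 in WT input and 334, 364 and 419.5 in KO input. Pool 1 of WT was high in both fractions, and TRAP and input overlapped (log2 ratio -0.06 ± 0.11, 95% interval -0.28 to 0.16). The ratio was -0.01 ± 0.09 for Cacna1b, -0.07 ± 0.10 for Cacna1c and -0.21 ± 0.10 for Cacna1a (adjusted p = 0.101, edgeR), which was called without WT pool 2. Cacna1e made up 38.8% to 46.6% of the summed Cav α1 level per kilobase in TRAP and 38.4% to 42.5% in input.

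Of the α2δ genes, which are the targets of gabapentin in the case of Cacna2d1 and Cacna2d2, none was called over both genotypes in edgeR as fitted for the other results. Cacna2d1 was at 126, 94.1 and 108 CPM in WT TRAP, 139, 115 and 133 in KO TRAP, 143, 117 and 118 in WT input and 133, 143 and 142 in KO input, with overlap (log2 ratio -0.16 ± 0.09, adjusted p = 0.159, edgeR). The ratio of Cacna2d3 was -0.21 ± 0.14 (adjusted p = 0.226). Cacna2d2, known from interneurons and Purkinje cells, was uneven between TRAP pools, with 22.2, 22.1 and 11.95 CPM in WT and 24.0, 8.29 and 7.82 in KO. The summed interneuron markers of the same pools were 439, 337 and 301 CPM in WT and 675, 194 and 191 in KO, so the pools low in Cacna2d2 were the pools with the lowest marker sums. Cacna2d2 had a ratio of -0.48 ± 0.30 (adjusted p = 0.218, edgeR) and was called with no filter and without KO pool 2, and the relation to the markers was not tested.

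Among HCN genes, which carry the h-current, none was called in edgeR as fitted for the other results. Hcn2 was at 38.9 to 49.3 CPM in TRAP and 42.1 to 63.0 in input, with a ratio of -0.26 ± 0.12 (adjusted p = 0.0806, edgeR), and was called without WT pool 2. Hcn2 held 29.5% to 41.6% of the summed HCN level per kilobase in TRAP. Hcn3, which shares 711 bases of exon with Pklr on the other strand, and Hcn4 were at 10.6 CPM or less in every library.

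Channel mRNAs are long, and the ratio of TRAP to input fell with exon length over the whole transcriptome. The median log2 ratio of all protein-coding genes went from 0.20 for genes with up to 2 kb of exon to 0.09, -0.05, -0.14 and -0.27 for genes of 2 to 4, 4 to 6, 6 to 8 and over 8 kb. Of the 28 channel genes without Scn9a and Scn4b, 15 were over 8 kb, and their median of -0.19 stood beside -0.27 for all 1513 protein-coding genes of that size, of which 45.1% were called lower in TRAP. Scn1a (-1.41) lay far below that median and Cacnb2 (0.35) above it, while the 8 Cav α1 genes, from -0.37 to -0.01, were on either side of it. Across genes Spearman's rho of the ratio with exon length was -0.26 over the same 28 channel genes and -0.26 over 12460 protein-coding genes, a description in which genes share the same libraries. The part of length in single ratios was not tested.

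**Figure D5:**
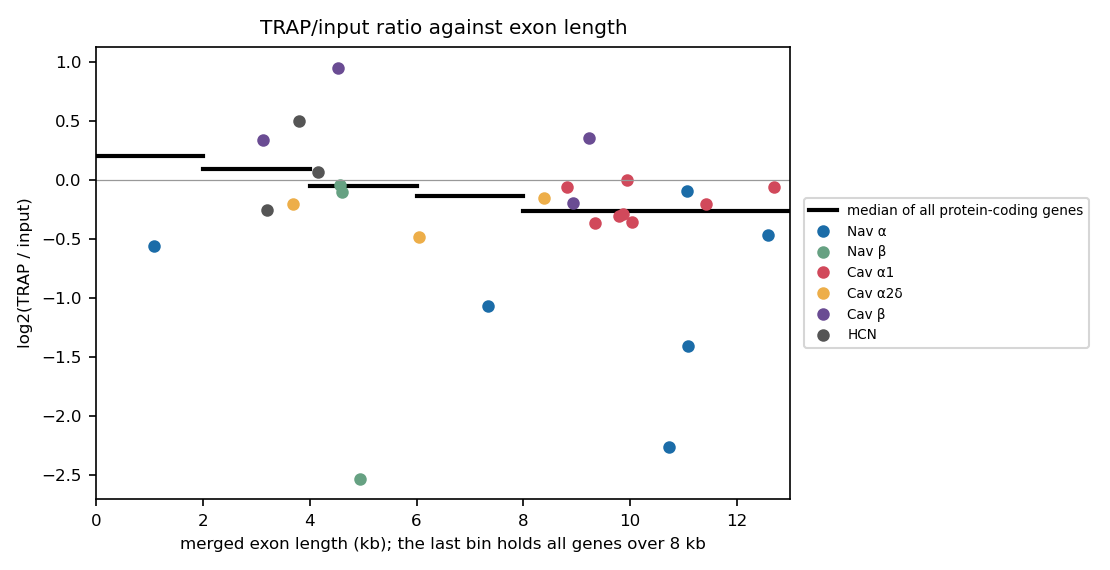
Fitted log2 ratio of TRAP to input over both genotypes against merged exon length in kilobases, for 27 of the 30 tested channel genes coloured by subfamily; black lines are medians of all protein-coding genes in 5 bins of length. The lines step down from 0.20 to -0.27, and Cacnb1 lies above and Scn1a far below them, as do Scn9a and Scn4b, which passed the filter through input alone.

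Finally, the ratios of TRAP to input were compared between genotypes, to ask whether any channel mRNA moved on or off tagged ribosomes with loss of FosB beyond its change in tissue. No channel gene of 30 was called, against 0.00757% of all genes, none had an unadjusted p under 0.05 in edgeR, and DESeq2 gave 0 at either threshold. There were 19 channel genes above and 11 below 0. For the called genes the differences (KO minus WT, log2) were -0.01 ± 0.13 for Cacnb1, 0.04 ± 0.14 for Cacnb3, 0.12 ± 0.20 for Cacnb2, -0.02 ± 0.25 for Scn1a, 0.34 ± 0.34 for Scn3a, -0.20 ± 0.25 for Cacna1d, 0.28 ± 0.25 for Cacna1g and 1.05 ± 0.93 for Scn9a. The 95% interval for Cacnb1 was -0.28 to 0.26.

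Proteins that bind, anchor or modulate these channels, a list of 30 genes of which 29 matched and which includes Scn2a1, were examined in the same fits. Between KO TRAP and WT TRAP 1 of 27 tested was called, against 0.0682% of all genes, the calmodulin gene Calm3 (log2 fold change -0.47 ± 0.07, adjusted p = 0.00284, edgeR), while Calm2 (-0.11 ± 0.08), which codes for the same protein, was not. In input Calm3 was at -0.42 ± 0.09 (adjusted p = 0.301, edgeR). Its ratios of TRAP to input differed between genotypes by -0.05 ± 0.11 on the log2 scale, so its fall was alike in both fractions. The cause of the Calm3 difference was not tested. Calmodulin is the calcium sensor bound to the tails of Cav and Nav pores. In TRAP 3 of 27 partners had an unadjusted p under 0.05, against 6.05% of all genes: Calm3, Cabp1 (-0.44 ± 0.12, adjusted p = 0.337, edgeR) and Rims2 (0.24 ± 0.11, adjusted p = 0.813, edgeR). Of 26 partners tested in input none was called in edgeR, against 0.0312% of all genes, and 2 had an unadjusted p under 0.05, against 2.89%. Between TRAP and input 9 of 27 partners were called higher, against 19.6% of all genes, and 7 lower, against 22.5%. The highest ratio, 0.93 ± 0.47 for Rrad, a GTPase that restrains Cav channels, missed the threshold (adjusted p = 0.115). The highest among the called were Cabp1, a neuronal calmodulin relative (0.65 ± 0.10), Calm2 (0.57 ± 0.07) and Akap5, a kinase anchor at L-type channels (0.51 ± 0.09). The lowest were Ank2, a membrane anchor (-0.65 ± 0.06), Rims2, a presynaptic scaffold of Cav channels (-0.61 ± 0.08), and Unc79 of the NALCN leak channel complex (-0.54 ± 0.09).

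FosB proteins bind AP-1 sites together with Jun proteins, and the promoters of the channel genes were read for the letters of such sites. RefSeq promoters (GRCm38.p6, 250 bases before to 50 after the start) were matched by symbol for 25 of 35 channel symbols, 34 promoters in all. TGANTCA, which reads the same on both strands, was in 0 of the 34 and in 7.81% of all 32851 promoters. TGACGTCA, the CRE motif, was in 0 of the 34 and in 1.79% of all. These letters are only described for this window.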

How the data were processed

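TRAP and input RNA was made into libraries with a stranded total RNA kit, and the authors aligned the reads with TopHat (mm9). They deposited raw read counts per gene of Gencode vM1 from HTSeq-count, neither normalized nor filtered. The strand setting is not given in the sources used here. A title lacking the word input was read as TRAP. The members and gene lists were chosen with earlier results of these data known. The deposited counts were analysed with edgeR 4.0.16 under R 4.3.3 (filterByExpr, TMM, robust quasi-likelihood test, Benjamini-Hochberg over all genes tested). Each comparison of 2 groups was fitted on those groups. The comparison of TRAP with input over both genotypes and the difference of ratios used all 12 libraries. DESeq2 1.42.0 was an alternative. Errors of log2 values are SE, the log2 value over the root of F. CPM used TMM over all libraries, exon length is that of merged exons, and ratios of single pools used a prior count of 2. Stretches of 75 bases, taken every 25 bases, were aligned to mm9 with minimap2 2.31. The edgeR test was tried on simulated counts for KO against WT in each fraction and for TRAP against input over both genotypes. The other steps were not tried on simulated data. Values in every library are given for genes with an unadjusted p under 0.05 between genotypes, up to 5 highest and 5 lowest called genes of TRAP against input, and the most abundant gene per kilobase of each subfamily. Cacnb4, Cacna2d2 and Calm2 were added after their values were seen. Some genes of the channel and partner lists are counted in the totals and not reported here singly.

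TRAP and input libraries of a pool carry 1 code in the labels and come from the same mice. Correlations of their deviations from group means were 0.0579 to 0.106. Numbers 2 and 3 occur in both genotypes but mark different mice (correlations of -0.0693 to 0.00298).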

Additional observations from a re-analysis of the deposited data

How the results depend on the processing

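Alternatives were RLE or total-count scaling, no filter or a mean of at least 10 counts, DESeq2, no robust dispersion, no mitochondrial genes, 1 fit of all 12 libraries, the replicate block, and leaving out each pool. No channel gene was called between genotypes under any of them. Over 11 named log2 values and 157 settings none reversed, 145 stayed on their side of the threshold and 12 no longer passed, all 12 after leaving out 1 pool (Cacna1d, Cacna1g, Scn3a and Cacnb2, values above). Channel genes called in TRAP against input in WT fell from 4 to 2 with a mean of at least 10 counts. All genes with an unadjusted p under 0.05 in edgeR were 4424 under that mean, against 4488. With a pool left out, channel genes called were 2 to 5 in WT, and 2 to 5 in KO against 6 with all. Calls over all genes with a pool left out are given below. The causes were not tested.

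Over all genes, KO against WT calls in TRAP (8) were 41 without a filter, 18 with DESeq2 and 5 to 20 with a pool left out. In input (4) they were 19 without a filter, 8 with DESeq2, 7 in 1 fit of all 12 libraries and 1 to 5 with a pool left out. With a pool left out, TRAP against input calls were 1289 to 3243 in WT, against 3096 with all pools. In KO they were 1982 to 3181, against 3626 with all pools. The 1 gene called in the difference of ratios gave 0 without robust dispersion and 0 to 1 with a pool left out.

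With the replicate block, channel genes called in TRAP against input over both genotypes went from 8 to 13 (43.5% of all genes), where TRAP and input of a pool are paired. They were 12 of 36 with no filter (27.6% of all genes), 10 with DESeq2 (42.8%) and 9 without robust dispersion (42.1%). Scn4b, added in each, passed the filter through input alone. Between genotypes the numbers pair nothing, and the block on them gave 20 calls over all genes in input. Low counts limit Scn4b, Scn7a, Scn9a, Hcn3 and Hcn4.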
